A study of Mus musculus with 10 samples.

Results

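The genes described here are 36 mouse cytochrome P450 genes, chosen by symbol and matched through Ensembl identifiers to 36 of the 49585 genes counted by bulk RNA sequencing in a liver cancer study. Cytochrome P450 enzymes are membrane-bound haem proteins that use electrons from the reductase Por, or from ferredoxin in mitochondria, to insert oxygen into drugs, fatty acids, bile acids, steroids and retinoids. In liver they are mainly products of hepatocytes, whereas bile duct epithelium carries few of them. Hepatocytes around the central vein are rich in Cyp2e1 and Cyp1a2 and those around the portal tract in Cyp2f2, so these genes serve as markers of position in the lobule.

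The series concerns hepatocellular carcinoma in mice that lose the Rb gene family (Rb1, Rbl1 and Rbl2) in a Cre-dependent triple knockout, abbreviated TKO in the count column names. By the labels it holds 10 samples in 5 groups of 2: organoids derived from Sox9 cells, organoids derived from Ck19 cells, and liver cells sorted as Epcam-negative, Epcam-high or Thy1-positive. Cells carried floxed alleles, and YFP, which reports Cre recombination, was used to sort them, with no treatment. The labels do not give a genotype per sample, the promoter driving Cre, the strain, sex or age. Nor do they say whether replicate libraries had separate animals or cultures as their source, so p-values measure only the spread between these libraries, which may be technical. Count columns named Ck19 and Sox9, each with a number, were tied to the organoid groups, which share every condition the labels give and differ in the cells of origin. A second pair of columns carries the names Sox9 and TKO together, and is called the TKO-tagged Sox9 libraries here. For 1 labelled pair of Sox9-derived samples there are thus 2 pairs of columns, counted in separate tables, so the effects of table and pair cannot be told apart. No column was tied by name to the 3 sorted groups, and no library was analysed under their labels.

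The TKO-tagged Sox9 libraries went against an organoid label. Levels are given as CPM, the fragment count scaled to the library total in genes. Albumin (Alb) stood at 21740.3 and 13158 CPM in the TKO-tagged Sox9 libraries, 9.40 and 1.24 CPM in the Sox9-derived libraries and 20.4 and 9.10 CPM in the Ck19-derived libraries. The bile duct keratin Krt19 stood at 0.619 and 1.61 CPM in the TKO-tagged Sox9 libraries, 3120.2 and 2987 CPM in the Sox9-derived libraries and 2453 and 1945 CPM in the Ck19-derived libraries. All 16 of 16 hepatocyte markers were at 1 CPM or more in both TKO-tagged libraries, with summed levels of 75082 to 89342 CPM, against 6 to 7 markers and 584 to 896 CPM in the 4 organoid libraries. Of 16 biliary markers 8 and 11 reached 1 CPM in the TKO-tagged libraries, 2 and 4 were at 0, and the sums were 6688 and 3672 CPM. In the organoid libraries 15 to 16 reached 1 CPM, with sums of 27319 to 42708 CPM. Stellate and mesenchymal markers summed to 289 and 558 CPM in the TKO-tagged libraries and to 10.3 to 33.6 CPM in the organoids, and endothelial markers to 80.2 and 111 CPM against 0.437 to 2.90 CPM. None of the 12 stellate and 8 endothelial markers was at 0 in a TKO-tagged library. Of 9 myeloid markers 7 and 9 reached 1 CPM in the TKO-tagged libraries, none at 0, against 3 in each organoid library, while their sums overlapped, at 1244 and 953 CPM against 1072 to 1354 CPM. Of 9 lymphocyte markers 5 reached 1 CPM and 3 were at 0 in each TKO-tagged library, with sums of 22.3 and 10.8 CPM, against 0 to 1 markers and 0.656 to 4.01 CPM in the organoids. The part of these cell types in the results below was not tested. The library pairs also differed in sex-linked transcripts, which were looked up after the data were seen: Xist had 0.0375 and 0.0168 CPM in the TKO-tagged libraries, 0.0273 and 0.0302 CPM in the Sox9-derived libraries and 60.3 and 57.1 CPM in the Ck19-derived libraries, and the Y-linked gene Ddx3y 34.2 and 33.1 CPM, 15.5 and 24.5 CPM and 0.125 and 0.0305 CPM in the same order. Sex and cell of origin therefore cannot be told apart in either comparison. In bulk RNA fewer cells of a type and less RNA per cell cannot be told apart. Fragments in genes numbered 53280136 and 59664959 in the TKO-tagged libraries and 31883180 to 36606008 in the organoid libraries, so 3 fragments, taken as the detection floor of a library, correspond to 0.0503 to 0.0941 CPM.

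P450 transcripts were abundant in the TKO-tagged Sox9 libraries and sparse in both kinds of organoid. The 36 genes summed to 6586 and 11121 CPM in the TKO-tagged Sox9 libraries, to 196 and 548 CPM in the Sox9-derived libraries and to 752 and 487 CPM in the Ck19-derived libraries. At least 1 CPM was reached in both libraries of a pair by 27 of the 36 genes in the TKO-tagged libraries, by 10 in the Sox9-derived organoids and by 11 in the Ck19-derived organoids. Conversely, 3, 18 and 19 of the 36 genes stayed at or under 3 fragments in both libraries of those pairs, in the same order. Counts of genes above a level in 1 library depend on the level: 16 genes reached 1 CPM in at least 1 organoid library, 20 reached 0.1 CPM and 7 reached 10 CPM.

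**Figure D1:**
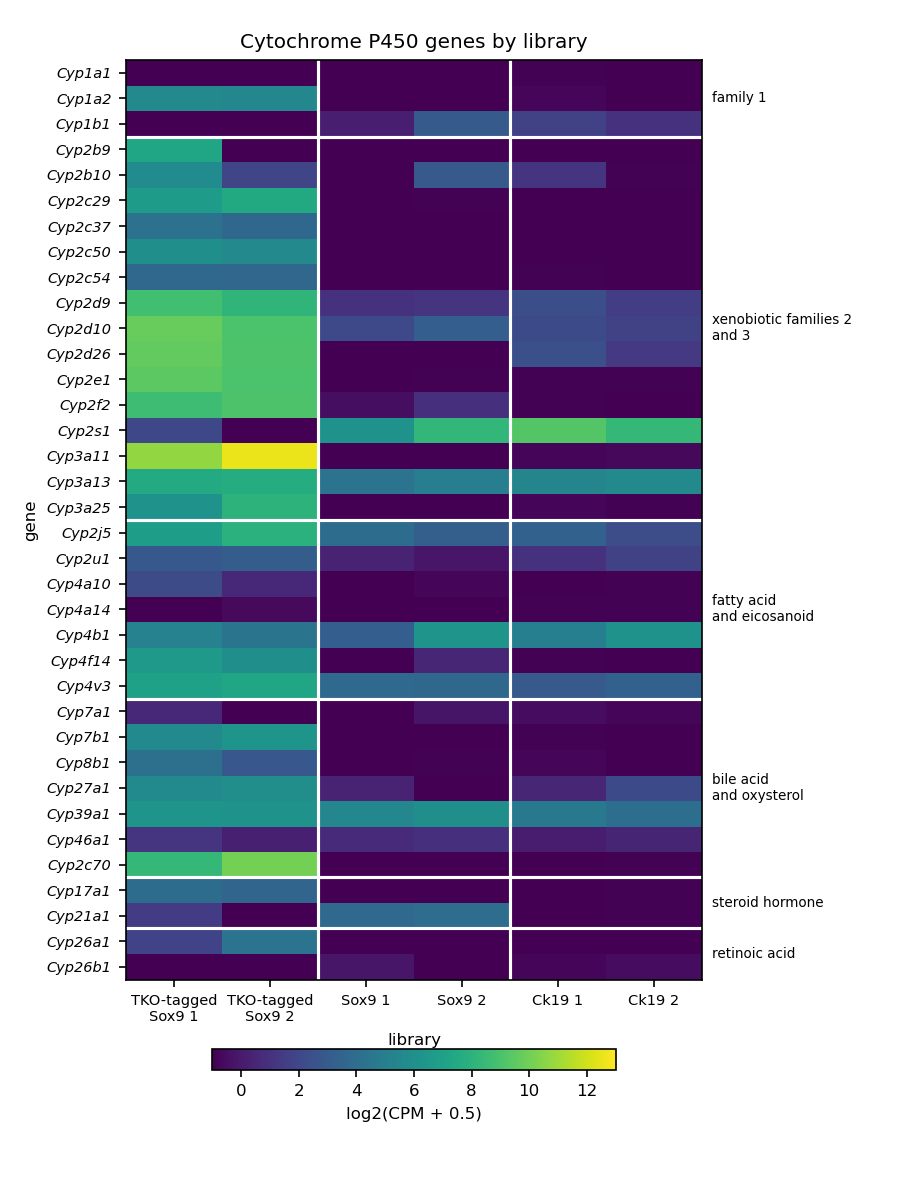
Level of each of the 36 P450 genes (rows, ordered by role) in each of the 6 libraries (columns, the TKO-tagged Sox9 pair first, then the Sox9-derived and Ck19-derived pairs), as log2(CPM + 0.5) by colour. The TKO-tagged columns are filled in most rows, whereas in the organoid columns Cyp2s1, Cyp4b1, Cyp3a13 and Cyp39a1 stand out.

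The genes most strongly expressed differed between the pairs when levels were put on a per-length scale (CPM per kb of exon). In the TKO-tagged Sox9 libraries Cyp3a11 led the mean level, at 337 and 1198 CPM per kb, followed by Cyp2d10 at 529.7 and 319 CPM per kb and Cyp2d26 at 492 and 325 CPM per kb. These top neighbours overlapped between the libraries, and Cyp2d10 and Cyp2d26 exceeded Cyp3a11 in replicate 1. In the Sox9-derived organoids Cyp2s1 had the highest mean, at 14.7 and 63.1 CPM per kb, followed by Cyp4b1 at 3.79 and 33.7 and Cyp39a1 at 14.7 and 20.6 CPM per kb, whose ranges all overlapped. Cyp2s1 led the Ck19-derived organoids as well, at 125 and 64.3 CPM per kb, and there it lay above Cyp4b1, at 14.3 and 31.9 CPM per kb, in both libraries.

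Both other pairs were compared with the Ck19-derived organoids in fits over all genes. These fits used edgeR's quasi-likelihood test, and a gene was called where its two-sided Benjamini-Hochberg adjusted p was at most 0.05. For the TKO-tagged Sox9 libraries 17938 genes were tested and 28.9% were called, 15% higher and 14% lower. Of the 36 P450 genes 30 passed the count filter, and of these 25 were called higher, 2 lower and 3 not called. The pairs did not overlap for 26 of the 30 with the TKO-tagged pair higher (19% of all genes tested) and for 2 with it lower (58.9%). For the Sox9-derived organoids 16653 genes were tested and 0.57% were called, 0.186% higher and 0.384% lower. There 15 P450 genes passed the filter, of which 1 was called higher, none lower and 14 were not called. At an unadjusted p under 0.05 the same edgeR test had 2792 genes. The pairs did not overlap for 4 of the 15 with the Sox9-derived pair higher (24.6% of all genes tested) and for 6 with it lower (26.3%). The filter admits a gene that is high in 1 pair only, so the counts describe the genes that passed and carry no weight as support. Both comparisons share the Ck19-derived libraries.

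A ratio of pair totals with a floor of 3 fragments per pair could be formed for 35 of the 36 genes in the TKO-tagged comparison, with a median log2 ratio of 7.62, against -1.02 over the 25237 genes above the floor. In the Sox9-derived comparison 20 of the 36 genes were above the floor, with a median of 0.63, against -0.11 over 24215 genes. Against library totals, the TMM scaling factors by themselves raise a log2 fold change by 0.76 in the TKO-tagged comparison and by 0.00 in the Sox9-derived comparison. The fitted value of a single gene need not move by that amount. On library totals the split of called genes in the TKO-tagged comparison became 1960 higher and 5158 lower, against 2683 higher and 2507 lower with TMM, and among the P450 genes 24 higher and 2 lower. Where a gene had 3 or fewer fragments in a pair, ratios of CPM on library totals are given in place of fitted fold changes, with an exact binomial 95% interval or, against 0, as a lower bound at 3 fragments over the pair. Such intervals and bounds cover counting error only and leave out the spread between libraries, since the fragments of a pair were pooled. The protocol describes no molecular identifiers, so PCR copies count as separate fragments and even the counting error is understated.

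Family 1 enzymes, which oxidise planar aromatic compounds and are targets of the aryl hydrocarbon receptor (Ahr), followed no common pattern. Cyp1a2, the caffeine-oxidising enzyme of pericentral hepatocytes, stood at 47.2 and 44.0 CPM in the TKO-tagged Sox9 libraries, 0 CPM in both Sox9-derived libraries and 0.0941 and 0 CPM in the Ck19-derived libraries. Both TKO-tagged libraries lay far above all organoid libraries, and the gene was called higher, with 3 fragments in the Ck19-derived pair and a ratio of 981-fold (95% interval 336 to 4759), with edgeR adjusted p = 0.00230. Cyp1b1, an enzyme of extrahepatic and mesenchymal tissues that oxidises oestrogens, ran the other way, at 0.0188 and 0.0168 CPM in the TKO-tagged Sox9 libraries, 0.628 and 7.36 CPM in the Sox9-derived libraries and 2.79 and 1.496 CPM in the Ck19-derived libraries. It was called lower in the TKO-tagged libraries, where it had 1 fragment in each library, with the level in the Ck19-derived pair 121 times as high (95% interval 32.8 to 1006, edgeR adjusted p = 0.0143). Leaving out Ck19-derived replicate 1 or 2 ended this call, with edgeR adjusted p = 0.176 and 0.127. Between the organoids its pairs overlapped (edgeR log2 fold change 0.90 with SE 1.17, adjusted p = 0.758), and without Sox9-derived replicate 2 its log2 fold change turned to -1.77. Cyp1a1, the most inducible Ahr target, had 1 fragment in all 6 libraries together. Ahr itself stood at 7.71 and 2.56 CPM in the TKO-tagged Sox9 libraries, 112 and 92.7 CPM in the Sox9-derived libraries and 48.6 and 48.7 CPM in the Ck19-derived libraries. It was called lower in the TKO-tagged libraries (edgeR log2 fold change -2.47 with SE 0.61, adjusted p = 0.0388) but not between the organoids (edgeR log2 fold change 1.07 with SE 0.18, adjusted p = 0.0986). Of 8 other Ahr-responsive genes, 6 passed the filter in the TKO-tagged comparison, and Gsta1 was called higher and Scin lower. Their median log2 fold change was -0.42 beside -0.07 over all genes tested, of which 15% were called higher and 14% lower.

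The largest group comprised 15 enzymes of families 2 and 3, which oxidise drugs and other foreign compounds. They summed to 5624 and 9255 CPM in the TKO-tagged Sox9 libraries, to 97.6 and 362 CPM in the Sox9-derived libraries and to 672 and 375 CPM in the Ck19-derived libraries. In the TKO-tagged comparison 12 were called higher, 1 lower (Cyp2s1) and 1 was not called (Cyp2b10), and Cyp2b9 was not tested. Over all genes tested there, 15% were called higher and 14% lower. In the Sox9-derived comparison 6 were tested and none was called, with edgeR adjusted p between 0.0965 and 0.754, while 0.57% of all genes tested were called.

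Cyp3a11, the main drug-metabolising P450 of mouse liver and the counterpart of human CYP3A4, was the most abundant member by CPM (ENSMUSG00000056035, chr5:145854426-145879964, GRCm38). It stood at 1717 and 6103 CPM in the TKO-tagged Sox9 libraries, 0 CPM in both Sox9-derived libraries and 0.0627 and 0.122 CPM in the Ck19-derived libraries. Both TKO-tagged libraries were high and differed by more than 2-fold from each other, whereas the 4 organoid libraries together held 6 fragments. Among all genes it ranked 73 and 14 by CPM in the TKO-tagged libraries. It was called higher (edgeR log2 fold change 16.05 with SE 1.17, adjusted p = 0.00199), and the level was 43455-fold that of the Ck19-derived pair on library totals. Cyp3a25, a second liver 3A enzyme, stood at 73.6 and 268 CPM in the TKO-tagged Sox9 libraries, 0 CPM in both Sox9-derived libraries and 0.0627 and 0.0305 CPM in the Ck19-derived libraries, again highest in TKO-tagged replicate 2. Its ratio was 3798-fold (95% interval 1299 to 18416), with edgeR adjusted p = 0.00282. Cyp3a13, a 3A enzyme of liver and intestine, was the family 3 gene with clear levels in organoids: 186 and 207 CPM in the TKO-tagged Sox9 libraries, 19.6 and 31.8 CPM in the Sox9-derived libraries and 40.2 and 49.6 CPM in the Ck19-derived libraries. Its Sox9-derived libraries lay below both Ck19-derived libraries without a call (edgeR log2 fold change -0.80 with SE 0.32, adjusted p = 0.307), and the TKO-tagged libraries were called higher (edgeR log2 fold change 2.89 with SE 0.25, adjusted p = 0.00281). That call was lost without Ck19-derived replicate 1 (edgeR adjusted p = 0.0520).

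The promoters of Cyp3a11, the sterol 12α-hydroxylase gene Cyp8b1 and the bile acid hydroxylase gene Cyp2c70 are shown because they were the 3 members whose RefSeq window (250 bases before to 50 after the start, GRCm38.p6) held the HNF4 core CAAAGTCCA on either strand. Windows were found for 27 of the 36 genes, and the same core was present in 0.475% of 32851 RefSeq promoters. The lines give the 120 bases before the start, 5′ to 3′, with the core in capitals, for Cyp3a11 (chr5:145879855-145879974, minus strand), Cyp8b1 (chr9:121916306-121916425, minus strand) and Cyp2c70 (chr19:40187287-40187406, minus strand).
Cyp3a11: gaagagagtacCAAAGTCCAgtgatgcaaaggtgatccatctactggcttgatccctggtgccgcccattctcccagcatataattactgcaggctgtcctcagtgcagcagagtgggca
Cyp8b1: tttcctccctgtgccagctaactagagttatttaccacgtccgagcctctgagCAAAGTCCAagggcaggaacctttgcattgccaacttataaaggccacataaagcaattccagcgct
Cyp2c70: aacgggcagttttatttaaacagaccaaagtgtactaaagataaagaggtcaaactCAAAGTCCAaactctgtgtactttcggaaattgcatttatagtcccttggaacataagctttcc
The core begins 109, 67 and 64 bases before those starts. All 3 genes were called higher in the TKO-tagged libraries, among 25 of the 30 P450 genes tested there. None of the 3 exceeded 0.122 CPM in an organoid library. Of all 36 genes, 18 and 19 stayed at or under 3 fragments in both Sox9-derived and both Ck19-derived libraries. Members with a window but without the core included some with the same pattern, such as Cyp2e1, and others without it, such as Cyp2s1. The part of the core was not tested. Hnf4a, which encodes the receptor that recognises this core, was present throughout, at 169.5 and 263 CPM in the TKO-tagged Sox9 libraries, 104 and 82.4 CPM in the Sox9-derived libraries and 136 and 129 CPM in the Ck19-derived libraries. It was called higher in the TKO-tagged libraries (edgeR log2 fold change 1.46 with SE 0.29, adjusted p = 0.0225) and not called between the organoids (edgeR log2 fold change -0.51 with SE 0.19, adjusted p = 0.275). TATAAA was found for 13 of the 27 member genes with a window and in 13.6% of all promoters. CCAAT was found for 12 of these 27 genes and in 37.4% of all promoters.

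Among family 2, the Cyp2c genes Cyp2c29, Cyp2c37, Cyp2c50 and Cyp2c54, which oxidise drugs and arachidonic acid, were close to absent from organoids, with 2 fragments over the 4 genes and 4 libraries. Cyp2c29 stood at 107 and 183 CPM in the TKO-tagged Sox9 libraries, Cyp2c50 at 62.9 and 47.9 CPM, Cyp2c37 at 19.0 and 12.7 CPM and Cyp2c54 at 12.1 and 11.8 CPM. Each was called higher than in the Ck19-derived pair, with edgeR adjusted p between 0.00173 and 0.00423. The Ck19-derived pair had no fragment of Cyp2c29, Cyp2c37 or Cyp2c50, and their levels in the TKO-tagged pair were at least 3171-fold, at least 338-fold and at least 1184-fold higher. With 1 fragment in the Ck19-derived pair, the ratio of Cyp2c54 was 770.2-fold (95% interval 138 to 30445). These genes have near-identical copies, and fragments that map to several copies were dropped, so the level of each is uncertain.

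Of the Cyp2d genes, relatives of the human drug enzyme CYP2D6, Cyp2d10 and Cyp2d9 kept low but measurable levels in all organoid libraries. Cyp2d10 stood at 872 and 526 CPM in the TKO-tagged Sox9 libraries, 3.72 and 8.60 CPM in the Sox9-derived libraries and 3.98 and 2.78 CPM in the Ck19-derived libraries. Cyp2d9, a male-predominant enzyme of mouse liver, stood at 441 and 289 CPM in the TKO-tagged Sox9 libraries, 1.502 and 1.72 CPM in the Sox9-derived libraries and 4.61 and 2.38 CPM in the Ck19-derived libraries. Cyp2d26 stood at 809 and 535 CPM in the TKO-tagged Sox9 libraries, 0 CPM in both Sox9-derived libraries and 4.83 and 1.98 CPM in the Ck19-derived libraries. All 3 were called higher in the TKO-tagged libraries, with log2 fold changes of 8.45 (SE 0.53), 7.46 (SE 0.57) and 8.38 (SE 0.70) for Cyp2d10, Cyp2d9 and Cyp2d26 and edgeR adjusted p between 0.00146 and 0.00258. Between the organoids Cyp2d26 had no fragment in either Sox9-derived library against 154 and 65 fragments in the Ck19-derived libraries, a level at least 78.8-fold lower over the pair. The edgeR test did not call it (adjusted p = 0.0965), nor did limma (adjusted p = 0.0633). With the replicate number as a block (adjusted p = 0.171) or all 6 libraries in 1 fit (adjusted p = 0.108) edgeR made no call either. DESeq2 (adjusted p = 2.19e-05) and edgeR without a count filter (adjusted p = 0.0165) called it lower. Its direction was the same in each of 11 alternatives. Reads shared with near-identical Cyp2d copies were dropped.

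The Cyp2b genes, targets of the receptor Nr1i3 (CAR), differed strongly between the libraries of a pair. Cyp2b9, a female-predominant enzyme of mouse liver, had 7870 fragments (148 CPM) in TKO-tagged replicate 1 and 1 fragment in replicate 2, and none in the 4 organoid libraries. It did not pass the count filter and was not tested. Cyp2b10 stood at 53.2 and 3.34 CPM in the TKO-tagged Sox9 libraries, 0 and 6.88 CPM in the Sox9-derived libraries and 1.73 and 0.0305 CPM in the Ck19-derived libraries. Each pair thus had 1 high and 1 low library, and neither comparison called it with edgeR (adjusted p = 0.0961 in the TKO-tagged and 0.754 in the Sox9-derived comparison). Of 11 alternatives 3 called it higher in the TKO-tagged comparison. Among them were DESeq2 (adjusted p = 0.0365) and edgeR with the replicate number as a block (adjusted p = 0.00960). Leaving out 1 library gave log2 fold changes of 2.66 to 10.48 there. Between the organoids its log2 fold change of 1.97 became -7.91 without Sox9-derived replicate 2. Nr1i3 was low everywhere, at 0.807 and 1.07 CPM in the TKO-tagged Sox9 libraries, 0.0820 and 0 CPM in the Sox9-derived libraries and 0.0941 and 0.153 CPM in the Ck19-derived libraries, and was called higher in the TKO-tagged libraries (edgeR log2 fold change 3.65 with SE 0.80, adjusted p = 0.0279).

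Cyp2s1, an epithelial P450 of lung, skin and gut that acts on retinoids and prostaglandin intermediates, had the highest CPM of the 36 genes in each of the 4 organoid libraries (ENSMUSG00000040703, chr7:25802475-25816913, GRCm38). It stood at 3.60 and 0.0168 CPM in the TKO-tagged Sox9 libraries, 72.6 and 311 CPM in the Sox9-derived libraries and 616 and 318 CPM in the Ck19-derived libraries. By CPM among all genes it ranked 3205 and 536 in the Sox9-derived organoids and 188 and 522 in the Ck19-derived organoids. Both kinds of organoid were high, and both TKO-tagged libraries lay below all 4 organoid libraries. The TKO-tagged libraries were called lower (edgeR log2 fold change -7.24 with SE 1.91, adjusted p = 0.0460), and this call was lost without Ck19-derived replicate 1 or 2 (edgeR adjusted p = 0.196 and 0.172). Between the organoids the pairs did not overlap, at 192 ± 169 CPM in the Sox9-derived and 467 ± 211 CPM in the Ck19-derived libraries (SD, n = 2 each). The edgeR test made no call (edgeR log2 fold change -1.28 with SE 0.74, adjusted p = 0.463). Without Sox9-derived replicate 2 it was called lower in the Sox9-derived organoids (log2 fold change -2.69, edgeR adjusted p = 0.00345). The annotated gene Gm26707 shares 5.27% of the exon bases of Cyp2s1, and strand was not used in counting.

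Cyp2e1, which oxidises ethanol and paracetamol around the central vein, and Cyp2f2, which oxidises naphthalene and marks the portal side, were compared as zonation markers together with Cyp1a2. Cyp2e1 stood at 717 and 522 CPM in the TKO-tagged Sox9 libraries, 0 and 0.0302 CPM in the Sox9-derived libraries and 0.0314 and 0.0305 CPM in the Ck19-derived libraries. Cyp2f2 stood at 402 and 546 CPM in the TKO-tagged Sox9 libraries, 0.219 and 1.39 CPM in the Sox9-derived libraries and 0.0314 and 0 CPM in the Ck19-derived libraries. Both were high only in the TKO-tagged libraries among these 6, and both were called higher there, with ratios of 19834-fold (95% interval 5490.5 to 1.64e+05) for Cyp2e1 and 30896-fold (95% interval 5545 to 1.22e+06) for Cyp2f2 (edgeR adjusted p = 0.000909 and 0.000997). Per kb of exon, the ratio of Cyp2e1 to Cyp2f2 was 1.67 in TKO-tagged replicate 1 and 0.897 in replicate 2, so the order of the pericentral and the periportal marker changed between the replicates. Cyp1a2 reached 0.118 and 0.0811 of the level of Cyp2f2 per kb, and Cyp2e1 exceeded Cyp1a2 by 14.2-fold and 11.1-fold. In organoids Cyp2f2 had 8 and 46 fragments in the Sox9-derived libraries against 1 and 0 in the Ck19-derived libraries, a ratio of 50.03-fold (95% interval 8.61 to 2012). It did not pass the count filter in that comparison. Cyp2e1 had 1 fragment in the Sox9-derived libraries together and 2 in the Ck19-derived ones, and Cyp1a2 had 0 and 3, so zonation could not be read in organoids. Gm15883 shares 13.5% of the exon bases of Cyp2f2.

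**Figure D2:**
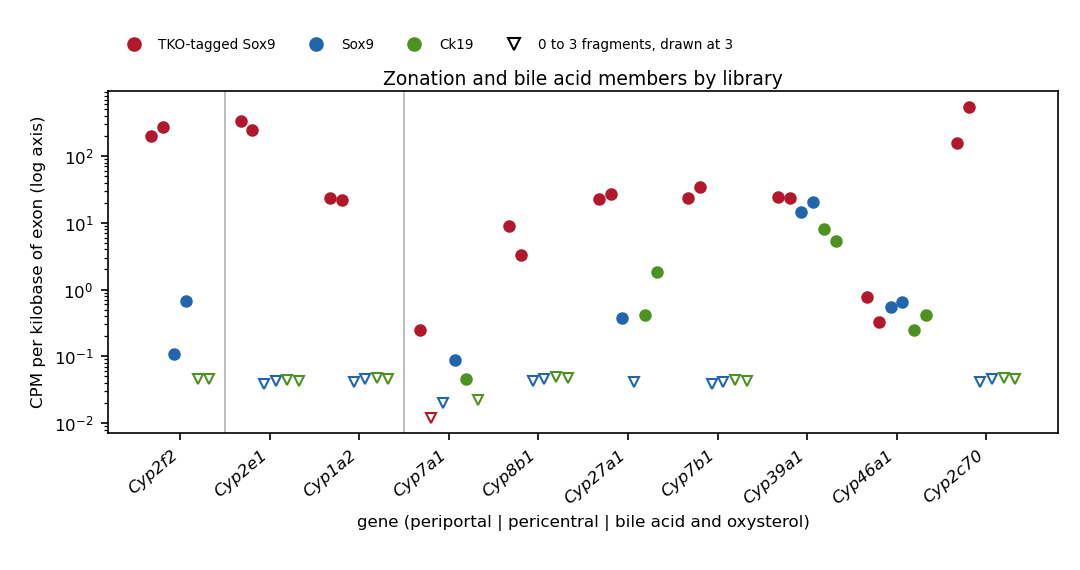
Level in CPM per kb of exon (log axis) of the zonation markers and of the bile acid and oxysterol P450 genes, with 1 point per library of the TKO-tagged Sox9, Sox9-derived and Ck19-derived pairs. Triangles mark libraries with 0 to 3 fragments, drawn at the level of 3. Cyp2e1 and Cyp2f2 lie between 198 and 332 CPM per kb in the TKO-tagged libraries, and Cyp39a1 is the bile acid gene with the highest level in both kinds of organoid.

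Promoter sequence is shown for these markers beside Cyp2s1, because Cyp2s1, high in the organoids, and the markers high in the TKO-tagged pair differed in CpG content. Each line gives the 250 bases before the RefSeq start, 5′ to 3′, with every CpG in capitals: Cyp2s1 (chr7:25816526-25816775, minus strand), Cyp2e1 (chr7:140763569-140763818, plus strand) and Cyp2f2 (chr7:27119705-27119954, plus strand).
Cyp2s1: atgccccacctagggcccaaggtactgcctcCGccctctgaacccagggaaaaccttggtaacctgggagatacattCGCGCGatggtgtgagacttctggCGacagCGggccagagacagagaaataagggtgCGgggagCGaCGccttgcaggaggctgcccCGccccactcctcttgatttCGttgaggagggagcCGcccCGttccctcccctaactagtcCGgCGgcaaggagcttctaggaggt
Cyp2e1: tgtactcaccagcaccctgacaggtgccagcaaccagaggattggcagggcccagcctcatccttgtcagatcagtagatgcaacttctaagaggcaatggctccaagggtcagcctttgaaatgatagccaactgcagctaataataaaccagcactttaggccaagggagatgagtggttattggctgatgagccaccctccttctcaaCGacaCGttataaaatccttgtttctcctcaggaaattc
Cyp2f2: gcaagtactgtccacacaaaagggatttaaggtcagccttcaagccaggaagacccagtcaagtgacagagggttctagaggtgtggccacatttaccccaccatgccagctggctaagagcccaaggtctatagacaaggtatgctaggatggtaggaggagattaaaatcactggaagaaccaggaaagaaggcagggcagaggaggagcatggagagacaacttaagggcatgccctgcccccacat
There are 15 CpG in the Cyp2s1 stretch, 2 in that of Cyp2e1 and 0 in that of Cyp2f2. Over the whole windows an observed-over-expected CpG ratio above 0.5 was found for 5 of the 27 member genes with a window, namely Cyp1b1, Cyp2s1, Cyp4v3, Cyp46a1 and Cyp26a1, and for 41.9% of all promoters. The median ratio was 0.167 over the 31 member windows and 0.384 over all 32851. Cyp1b1 and Cyp2s1, both in the group above 0.5, were the 2 members called lower in the TKO-tagged libraries. Cyp4v3 and Cyp26a1, from the same group, were called higher, so genes above 0.5 were called in both directions. Cyp4b1 and Cyp3a13, which also had clear levels in the organoids, had low ratios of 0.242 and 0.0639, and Cyp39a1 had no window. Genes with clear levels in organoids thus lay on both sides of 0.5. A link between level in organoids and CpG content was not tested.

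Of 7 enzymes that oxidise fatty acids and eicosanoids, 6 were tested in the TKO-tagged comparison, with 5 called higher (15% of all genes tested) and Cyp4b1 not called. In the Sox9-derived comparison 4 were tested and none was called, beside 0.57% of all genes tested. They summed to 383 and 491 CPM in the TKO-tagged Sox9 libraries, to 37.4 and 98.4 CPM in the Sox9-derived libraries and to 50.6 and 89.2 CPM in the Ck19-derived libraries. Cyp4b1, an enzyme of lung and kidney that hydroxylates fatty acids, stood at 36.3 and 20.2 CPM in the TKO-tagged Sox9 libraries, 8.55 and 75.9 CPM in the Sox9-derived libraries and 32.4 and 72.1 CPM in the Ck19-derived libraries. Its 3 pairs overlapped, and it was called in neither comparison (edgeR log2 fold change -0.11 with SE 0.51, adjusted p = 0.896, in the TKO-tagged comparison; edgeR log2 fold change -0.29 with SE 1.01, adjusted p = 0.917, in the Sox9-derived one). Without Sox9-derived replicate 2 it was called lower in the Sox9-derived organoids (log2 fold change -2.61, edgeR adjusted p = 0.0114), and its sign turned without Sox9-derived replicate 1 (0.57) or Ck19-derived replicate 2 (0.35).

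Cyp2j5, an epoxygenase of arachidonic acid in liver and kidney, stood at 113 and 245 CPM in the TKO-tagged Sox9 libraries, 14.7 and 8.90 CPM in the Sox9-derived libraries and 9.72 and 4.52 CPM in the Ck19-derived libraries. Cyp4v3, the counterpart of the human ω-hydroxylase CYP4V2, stood at 129 and 153 CPM in the TKO-tagged Sox9 libraries, 13.4 and 12.2 CPM in the Sox9-derived libraries and 6.96 and 9.65 CPM in the Ck19-derived libraries. For both, the TKO-tagged pair was highest and was called higher (Cyp2j5 edgeR log2 fold change 5.39 with SE 0.64, adjusted p = 0.00639; Cyp4v3 edgeR log2 fold change 4.85 with SE 0.30, adjusted p = 0.00141). The call of Cyp2j5 was lost without Ck19-derived replicate 2 (edgeR adjusted p = 0.0552). Cyp4f14, which ω-hydroxylates leukotriene B4 and vitamin E, stood at 94.4 and 63.2 CPM in the TKO-tagged Sox9 libraries, 0 and 0.935 CPM in the Sox9-derived libraries and 0.0314 and 0 CPM in the Ck19-derived libraries. The ratio for the TKO-tagged pair was 5035-fold (95% interval 903 to 1.99e+05), with edgeR adjusted p = 0.00117. Its 31 fragments in Sox9-derived replicate 2 had no counterpart in replicate 1. Cyp2u1, a long-chain fatty acid hydroxylase, was low throughout, at 6.68 and 8.16 CPM in the TKO-tagged Sox9 libraries, 0.792 and 0.392 CPM in the Sox9-derived libraries and 1.47 and 2.87 CPM in the Ck19-derived libraries. It was called higher in the TKO-tagged libraries (edgeR log2 fold change 2.53 with SE 0.59, adjusted p = 0.0324), and this call was lost on library totals (adjusted p = 0.0720), with the replicate number as a block (adjusted p = 0.0618) and without Ck19-derived replicate 1 or 2 (adjusted p = 0.224 and 0.155, all by edgeR). Another annotated gene shares 10.5% of its exon bases.

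The Cyp4a genes are ω-hydroxylases and standard targets of the receptor Ppara. Cyp4a10 had 218 and 63 fragments in the TKO-tagged Sox9 libraries, 0 and 2 fragments in the Sox9-derived and 0 and 1 fragments in the Ck19-derived organoids. It was called higher in the TKO-tagged libraries with a ratio of 161-fold (95% interval 28.6 to 6374) and edgeR adjusted p = 0.0209, a call lost without Ck19-derived replicate 1 or 2 (adjusted p = 0.163 and 0.132) and with the block (adjusted p = 0.0519). Cyp4a14 had 0 and 9 fragments in the TKO-tagged libraries, none in the Sox9-derived and 1 in each Ck19-derived library, and was not tested. Both were low in the TKO-tagged libraries, in which Ppara stood at 54.8 and 21.2 CPM, against 0 CPM in both Sox9-derived libraries and 0.753 and 0.977 CPM in the Ck19-derived libraries (edgeR log2 fold change 6.23 with SE 0.68, adjusted p = 0.00516 for the TKO-tagged comparison).

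Bile acid and oxysterol enzymes comprised 7 members. In the classical pathway Cyp7a1 adds the first hydroxyl group to cholesterol and sets the rate, and Cyp8b1 adds the 12α-hydroxyl group that makes cholic acid. In the alternative pathway Cyp27a1 acts first on the side chain and Cyp7b1 follows. Cyp46a1 turns cholesterol of the brain into an oxysterol that Cyp39a1 hydroxylates further, and Cyp2c70 makes the muricholic acids of mice. In the TKO-tagged comparison 6 were tested, of which 5 were called higher (15% of all genes tested) and Cyp46a1 was not called. In the Sox9-derived comparison 3 were tested and none was called, beside 0.57% of all genes tested.

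Cyp7a1 was at 1.03 CPM or lower in every library, with 55 and 1 fragments in the TKO-tagged Sox9 libraries, 0 and 12 fragments in the Sox9-derived and 6 and 3 fragments in the Ck19-derived organoids, and was not tested. Cyp8b1 stood at 17.7 and 6.37 CPM in the TKO-tagged Sox9 libraries, 0 and 0.0302 CPM in the Sox9-derived libraries and 0.0941 and 0 CPM in the Ck19-derived libraries. The TKO-tagged pair was called higher with a ratio of 252-fold (95% interval 86.0 to 1223), with edgeR adjusted p = 0.0121, a call lost without Ck19-derived replicate 1 or 2 (adjusted p = 0.0539 and 0.0734). In the alternative pathway Cyp7b1 stood at 50.7 and 75.2 CPM in the TKO-tagged Sox9 libraries, 0 CPM in both Sox9-derived libraries and 0.0314 and 0 CPM in the Ck19-derived libraries, with a ratio of 4110.4-fold (95% interval 737 to 1.62e+05) and edgeR adjusted p = 0.00114. Cyp27a1 stood at 49.4 and 59.4 CPM in the TKO-tagged Sox9 libraries, 0.820 and 0 CPM in the Sox9-derived libraries and 0.910 and 3.97 CPM in the Ck19-derived libraries. Its TKO-tagged libraries were called higher (edgeR log2 fold change 5.24 with SE 0.77, adjusted p = 0.0110), and the Sox9-derived libraries, 1 of them at 0, lay below both Ck19-derived libraries without a call (edgeR log2 fold change -2.55 with SE 1.78, adjusted p = 0.540). With Sox9-derived replicate 1 left out edgeR called it lower (adjusted p = 0.0191). Cyp2c70 stood at 315 and 1085 CPM in the TKO-tagged Sox9 libraries, 0 CPM in both Sox9-derived libraries and 0 and 0.0305 CPM in the Ck19-derived libraries, more than 2-fold apart within the TKO-tagged pair and with a ratio of 46640.0-fold (95% interval 8371 to 1.84e+06), with edgeR adjusted p = 0.00221.

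Cyp39a1 had the highest mean CPM in organoids of the 7 bile acid and oxysterol P450 genes (ENSMUSG00000023963, chr17:43667425-43751431, GRCm38). It stood at 75.1 and 72.6 CPM in the TKO-tagged Sox9 libraries, 44.7 and 62.8 CPM in the Sox9-derived libraries and 24.4 and 16.2 CPM in the Ck19-derived libraries. The TKO-tagged pair was highest, the Sox9-derived pair lay in between and the Ck19-derived pair was lowest, with no overlap between neighbours. The TKO-tagged libraries were called higher than the Ck19-derived organoids (edgeR log2 fold change 2.62 with SE 0.32, adjusted p = 0.00687), a call lost without Ck19-derived replicate 1 or 2 (adjusted p = 0.0518 and 0.0768). Sox9-derived organoids, at 53.8 ± 12.8 CPM against 20.3 ± 5.77 CPM in Ck19-derived organoids (SD, n = 2 each), were not called (edgeR log2 fold change 1.40 with SE 0.33, adjusted p = 0.142). DESeq2 called Cyp39a1 higher in the Sox9-derived organoids (adjusted p = 0.00331), whereas limma did not (adjusted p = 0.133). Nor did edgeR without a count filter (adjusted p = 0.0759) or with the replicate number as a block (adjusted p = 0.234). Leaving out 1 library gave log2 fold changes of 1.11 to 1.74. Cyp46a1 was low, at 1.63 and 0.687 CPM in the TKO-tagged Sox9 libraries, 1.15 and 1.39 CPM in the Sox9-derived libraries and 0.533 and 0.886 CPM in the Ck19-derived libraries. Both Sox9-derived libraries lay above both Ck19-derived libraries, without a call (edgeR log2 fold change 0.84 with SE 0.66, adjusted p = 0.586).

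Of the 12 other genes of bile acid synthesis and conjugation listed, 11 were tested in the TKO-tagged comparison, with 10 called higher and none lower (median log2 fold change 4.43 against -0.07 over all genes tested). The listed genes include Baat, which conjugates bile acids to amino acids, at 102 and 151 CPM in the TKO-tagged Sox9 libraries, 0 and 0.302 CPM in the Sox9-derived libraries and 0 CPM in both Ck19-derived libraries. Slc27a5, which activates bile acids, stood at 236 and 279 CPM in the TKO-tagged Sox9 libraries, 0.0273 and 0 CPM in the Sox9-derived libraries and 0.125 and 0.0916 CPM in the Ck19-derived libraries. In the Sox9-derived comparison 6 were tested and 1 was called higher (0.186% of all genes tested), the peroxisomal oxidase gene Acox2. It stood at 353 and 325 CPM in the Sox9-derived against 55.1 and 48.8 CPM in the Ck19-derived libraries (edgeR log2 fold change 2.71 with SE 0.18, adjusted p = 0.0358). The bile acid receptor Nr1h4 (FXR) stood at 82.1 and 61.9 CPM in the TKO-tagged Sox9 libraries, 7.43 and 18.7 CPM in the Sox9-derived libraries and 6.81 and 5.25 CPM in the Ck19-derived libraries. It was called higher in the TKO-tagged libraries (edgeR log2 fold change 4.34 with SE 0.35, adjusted p = 0.00234).

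**Figure D3:**
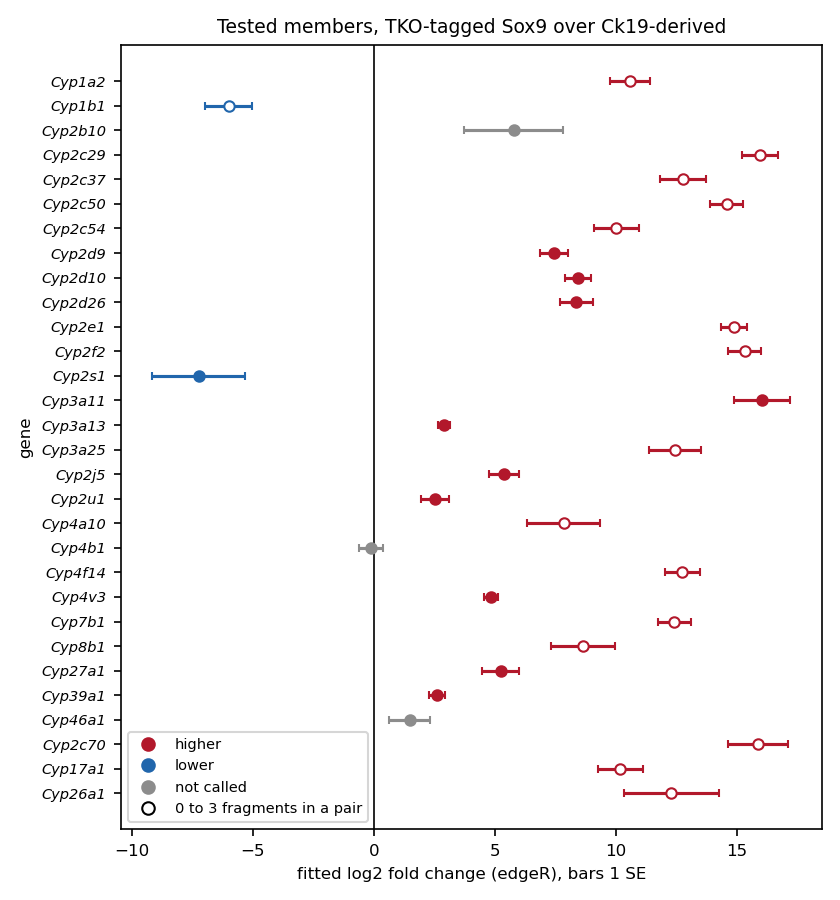
Log2 fold change (edgeR, TMM scaling) of the 30 P450 genes tested in the TKO-tagged Sox9 libraries over the Ck19-derived organoids, with bars of 1 SE and colours by call. Open symbols mark genes with 0 to 3 fragments in a pair, whose fitted values depend on the prior count; 25 genes are called higher, and Cyp1b1 and Cyp2s1 lower.

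Of the 2 steroid hormone enzymes, Cyp21a1, the 21-hydroxylase of the adrenal cortex, was the single P450 gene of the 36 called between the organoids (ENSMUSG00000024365, chr17:34801348-34804561, GRCm38). It had 119 and 0 fragments in the TKO-tagged Sox9 libraries, 496 and 524 fragments in the Sox9-derived organoids and 0 and 1 fragments in the Ck19-derived organoids, which correspond to 2.23 and 0 CPM in the TKO-tagged Sox9 libraries, 13.5 and 15.8 CPM in the Sox9-derived libraries and 0 and 0.0305 CPM in the Ck19-derived libraries. Both Sox9-derived libraries were high and close to each other, both Ck19-derived libraries were at the floor, and the TKO-tagged pair held 1 low and 1 empty library. The Sox9-derived level was 945-fold (95% interval 169 to 37361) that of the Ck19-derived organoids and was called higher by edgeR (adjusted p = 0.0389). The direction was the same in each of 11 alternatives, but the call was lost without Ck19-derived replicate 1 or 2 (edgeR adjusted p = 0.418 and 0.401), with the replicate number as a block (adjusted p = 0.0983) and with all 6 libraries in 1 fit (adjusted p = 0.294). Tnxa shares 4.77% of the exon bases of Cyp21a1 and strand was not used, so in the shared bases fragments of the 2 genes cannot be told apart. Cyp17a1, which makes androgen precursors and 17-hydroxylated steroids, stood at 15.1 and 11.5 CPM in the TKO-tagged Sox9 libraries, 0 CPM in both Sox9-derived libraries and 0 and 0.0305 CPM in the Ck19-derived libraries. The TKO-tagged pair was called higher with a ratio of 853-fold (95% interval 153 to 33699), with edgeR adjusted p = 0.00321.

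**Figure D4:**
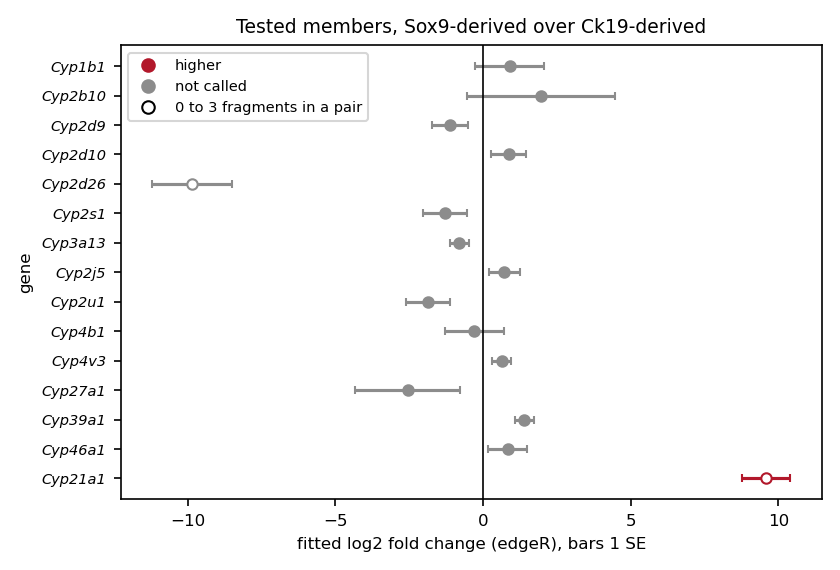
Log2 fold change (edgeR, TMM scaling) of the 15 P450 genes tested in the Sox9-derived over the Ck19-derived organoids, with bars of 1 SE and colours by call. Open symbols mark genes with 0 to 3 fragments in a pair; Cyp21a1 is called higher (adjusted p = 0.0389), and Cyp2d26, at the other end, is not called (adjusted p = 0.0965).

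The retinoic acid hydroxylases Cyp26a1 and Cyp26b1 clear retinoic acid, and Cyp26a1 is a direct retinoic acid target. Cyp26a1 stood at 2.97 and 20.0 CPM in the TKO-tagged Sox9 libraries, 0 CPM in both Sox9-derived libraries and 0 CPM in both Ck19-derived libraries. It was at least 258-fold higher in the TKO-tagged than in the Ck19-derived pair and was called higher (edgeR adjusted p = 0.0205), a call lost without Ck19-derived replicate 1 or 2 (adjusted p = 0.0998 and 0.103). Its TKO-tagged libraries differed by more than 2-fold. Its promoter is shown because it was the single member with a retinoic acid response element, sought on both strands as AGTTCA followed after 5 bases by AGTTCA. Of the 32851 RefSeq promoters, 8 held it (0.0244%). The line gives the 120 bases before the start (chr19:37697688-37697807, plus strand), with the element, read on the opposite strand, in capitals and beginning 32 bases before the start.
Cyp26a1: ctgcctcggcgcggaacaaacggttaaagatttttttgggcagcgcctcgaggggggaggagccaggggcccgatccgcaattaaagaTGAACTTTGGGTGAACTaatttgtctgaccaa
Cyp26b1 had no fragment in the TKO-tagged libraries, 15 and 0 fragments in the Sox9-derived and 3 and 6 fragments in the Ck19-derived organoids, and was not tested. Of 15 other genes of retinoid metabolism, 12 were tested in the TKO-tagged comparison, of which 4 were called higher and 3 lower. Over all genes tested these shares were 15% and 14%. The median log2 fold change was 0.53, against -0.07 over all genes tested. Rbp4, the carrier of retinol in blood, stood at 4508 and 5043 CPM in the TKO-tagged Sox9 libraries, 13.9 and 4.22 CPM in the Sox9-derived libraries and 94.6 and 49.5 CPM in the Ck19-derived libraries and was called higher in the TKO-tagged libraries (edgeR log2 fold change 6.80 with SE 0.55, adjusted p = 0.00242). Aldh1a1, which makes retinoic acid, stood at 476 and 348 CPM in the TKO-tagged Sox9 libraries, 39.7 and 37.3 CPM in the Sox9-derived libraries and 56.8 and 62.9 CPM in the Ck19-derived libraries and was called higher too (edgeR log2 fold change 3.55 with SE 0.31, adjusted p = 0.00290). Rdh10, which makes retinal, stood at 13.3 and 20.6 CPM in the TKO-tagged Sox9 libraries, 115 and 20.1 CPM in the Sox9-derived libraries and 168 and 167 CPM in the Ck19-derived libraries. It was called lower in the TKO-tagged libraries (edgeR log2 fold change -2.55 with SE 0.30, adjusted p = 0.00597). So was the retinol receptor gene Stra6, which had no fragment there against 15.96 and 53.1 CPM in the Ck19-derived libraries (edgeR adjusted p = 0.00911).

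Replicates of a pair were far apart for part of the P450 genes, given here as a description without a test. Among genes with at least 10 fragments in a library of the pair, replicates differed by over 2-fold for 12 of 32 P450 genes in the TKO-tagged Sox9 libraries (22.7% of all genes), for 8 of 18 in the Sox9-derived organoids (15.9%) and for 5 of 14 in the Ck19-derived organoids (9.76%). In the TKO-tagged pair Cyp2b9, Cyp2b10, Cyp2s1 and Cyp21a1 were higher in replicate 1, with log2 ratios of 8.16, 3.81, 2.99 and 2.45, and Cyp26a1, Cyp3a25, Cyp3a11 and Cyp2c70 were higher in replicate 2, with log2 ratios of -2.57, -1.86, -1.83 and -1.78 (replicate 1 over replicate 2, on CPM + 0.5). Cyp2b10, Cyp4b1, Cyp1b1 and Cyp2s1 were all higher in Sox9-derived replicate 2, with log2 ratios of -3.88, -3.08, -2.80 and -2.09.

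**Figure D5:**
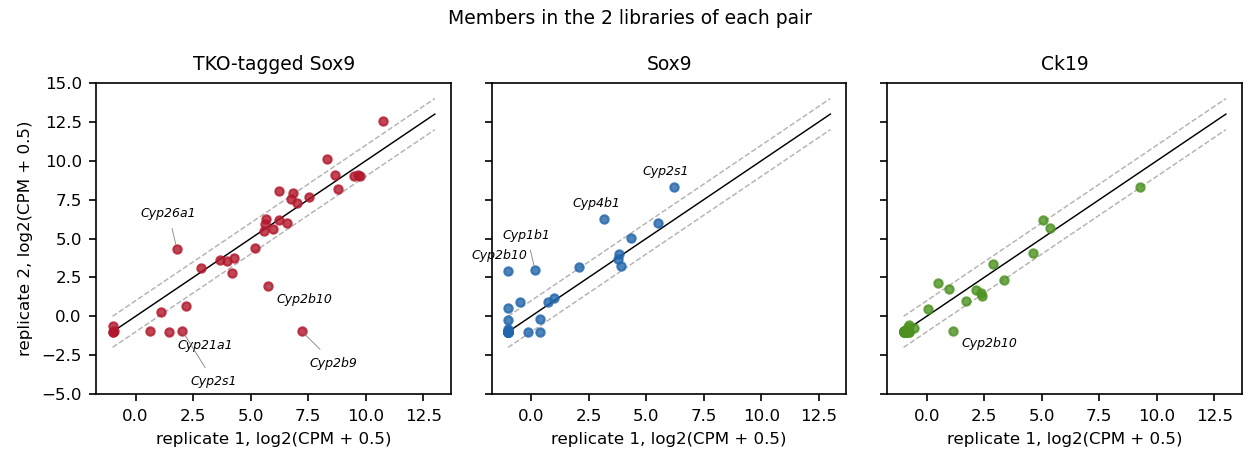
Replicate 2 against replicate 1 of each pair for the 36 P450 genes, as log2(CPM + 0.5), with the line of equality and dashed lines at a 2-fold difference. Named genes differ by more than 4-fold, among them Cyp2b9 and Cyp26a1 in the TKO-tagged Sox9 pair and Cyp2s1 and Cyp4b1 in the Sox9-derived pair.

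The 64 other cytochrome P450 genes of the tables were also most abundant in the TKO-tagged libraries. They summed to 2831 and 2165 CPM in the TKO-tagged Sox9 libraries, to 518 and 527 CPM in the Sox9-derived libraries and to 738 and 604 CPM in the Ck19-derived libraries. In the TKO-tagged comparison 24 of 38 tested were called higher and 2 lower (15% and 14% of all genes tested). Their median log2 fold change was 7.79, against -0.07 over all genes tested. In the Sox9-derived comparison 1 of 18 was called (0.57% of all genes tested). It was the male-predominant fatty acid hydroxylase Cyp4a12a, lower at 0.492 and 0.452 CPM in the Sox9-derived against 15.2 and 18.6 CPM in the Ck19-derived libraries (edgeR log2 fold change -5.15 with SE 0.41, adjusted p = 0.0388).

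Por, the common electron donor of microsomal P450 enzymes, stood at 187 and 293 CPM in the TKO-tagged Sox9 libraries, 150.1 and 175 CPM in the Sox9-derived libraries and 312 and 215 CPM in the Ck19-derived libraries. It was called in neither comparison (edgeR adjusted p = 0.245 in the TKO-tagged and 0.262 in the Sox9-derived comparison). Of 15 genes of electron transfer and haem synthesis, 5 were called higher in the TKO-tagged libraries and none lower, among them Cyb5a, a second electron donor (edgeR log2 fold change 2.60 with SE 0.31, adjusted p = 0.00629), and Alas1, the first enzyme of haem synthesis (edgeR log2 fold change 2.71 with SE 0.34, adjusted p = 0.00730). None of the 15 was called between the organoids. Of 16 xenobiotic receptors and partners, 15 were tested in the TKO-tagged comparison, with 10 called higher and Ahr lower. The pregnane X receptor gene Nr1i2 stood at 13.1 and 27.9 CPM in the TKO-tagged Sox9 libraries, 0.519 and 1.45 CPM in the Sox9-derived libraries and 1.04 and 1.31 CPM in the Ck19-derived libraries (edgeR log2 fold change 4.87 with SE 0.56, adjusted p = 0.00590). Of 24 phase 2 conjugation genes 18 were called higher and 1 lower there, and none of 20 tested was called between the organoids. Among other zonation genes, 7 of 12 pericentral genes were called higher and 3 lower in the TKO-tagged libraries (median log2 fold change 3.07), and 10 of 12 periportal genes higher and none lower (median 10.08). The lists were not tested against each other, so these counts give no position in the lobule. Between the organoids none of the 10 pericentral and 7 periportal genes tested was called. Over all genes tested, 15% were called higher and 14% lower in the TKO-tagged comparison, and 0.57% were called between the organoids. At that last share, an absence of calls in short lists carries little weight.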

How the data were processed

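The assay was bulk RNA sequencing of mouse liver organoids and cells, and the deposited values are raw counts of fragments per gene that the authors made with featureCounts 1.5.0-p3 against Ensembl release 87 on GRCm38, per the file headers. Primary alignments with both ends mapped and a mapping quality of at least 10 were counted without strand, so fragments shared by near-identical P450 copies were dropped. Low mapping quality took 33.2% to 40.9% of fragments, and 51.5% to 59.7% were assigned to genes. Duplicates were to be ignored, but 0 fragments carried that flag, so PCR copies were counted. The submitters' processing notes name STAR 2.5.4b, Subread, edgeR and limma, and the builds mm9, hg19 and GRCm38 without a role for each.

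Columns were tied to samples by name. Another 4 count columns fit no label by name and were left out, and 3 groups (6 samples) had no matched column. The planned fit of all groups therefore became a fit of 4 libraries (2 residual degrees of freedom), with the TKO-tagged columns, planned as the second choice for the Sox9-derived pair, in a fit of their own. CPM were computed on library totals. Tests used edgeR 4.0.16 in R 4.3.3 (filterByExpr with a minimum count of 10, TMM, quasi-likelihood, Benjamini-Hochberg over all genes tested, threshold 0.05), with DESeq2 1.42.0 and limma 3.58.1 as alternatives. The scripts were tested on simulated data. Replicate libraries differed far beyond sampling noise (chi-square per gene 62.8 to 412) and were kept separate. Promoters are from RefSeq (GRCm38.p6). Every one of the 36 genes is accounted for, with values per library for those tested or at 1 CPM in any library; other genes in the report were taken from those called with the 4 smallest p of each list, not all of which are printed, or were fixed by name, except where said to be chosen after the values were seen. The genes, lists and named-gene rule were chosen with earlier results of these data known.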

Additional observations from a re-analysis of the deposited data

How the results depend on the processing

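Between the Sox9-derived and Ck19-derived organoids, the counts of called genes and of called P450 genes moved with most settings: 95 and 1 in the reported fit, 1512 and 3 with DESeq2, 506 and 2 without the count filter, 0 and 0 with the replicate number as a block (edgeR, 2665 genes at an unadjusted p under 0.05), 14 and 0 with all 6 libraries in 1 fit, and 5190 and 27 with the TKO-tagged columns. Leaving out 1 library gave 0 to 1394 called genes and 0 to 5 called P450 genes, with 0 of each when either Ck19-derived library was left out (edgeR; the lone library of a group is assumed to vary like the other group). The deviations of replicate 1 from 2 were hardly correlated between the groups (r = 0.0698 over 16604 genes). With 1 such deviation per group, this check cannot tell whether libraries of the same number share a source. With the TKO-tagged columns the log2 fold change changed sign for Cyp1b1 (-6.00), Cyp2d9 (7.46), Cyp2d26 (8.38), Cyp3a13 (2.89), Cyp2u1 (2.53) and Cyp27a1 (5.24). Leaving out 1 library gave log2 fold changes of -1.77 to 1.79 for Cyp1b1 and -7.91 to 6.66 for Cyp2b10, both negative without Sox9-derived replicate 2. For Cyp4b1 they ran from -2.61 to 0.57, positive without Sox9-derived replicate 1 (0.57) or Ck19-derived replicate 2 (0.35). The cause was not tested. In the TKO-tagged comparison 5190 genes were called, 3319 with the replicate block and 881 to 6976 without 1 library, the lowest 2 counts (918 and 881) without a Ck19-derived library; called P450 genes ran from 19 to 31 without 1 library, and were 26 with the block. Cyp4b1 ran there from -0.61 to 0.52, positive without TKO-tagged replicate 2 (0.33) or Ck19-derived replicate 2 (0.52). Of 165 alternative values of the 15 P450 genes tested between the organoids, not counting the TKO-tagged columns, 148 kept direction and side of the threshold, and of 330 in the TKO-tagged comparison 306 did. At 10 CPM in place of 1 CPM, 7 in place of 16 members reached the level in an organoid library. The comparisons that need the 3 sorted groups were not run. With 2 libraries a group and 3 fragments as floor, differences of genes under 0.1 CPM were not detectable.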

Other observations

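Among P450 genes outside the 36, chosen here after their values were seen, the TKO-tagged Sox9 libraries had Cyp2a12, a bile acid hydroxylase of mouse liver, at 688 and 648 CPM, with 0 in both Sox9-derived libraries and 0.0314 and 0.0611 CPM in the Ck19-derived libraries. Cyp2a4, a female-predominant steroid hydroxylase of mouse liver, stood at 440.4 and 79.4 CPM in the TKO-tagged libraries and at 0 in the 4 organoid libraries. Like Cyp2b9 it was higher in TKO-tagged replicate 1, in libraries with 0.0375 and 0.0168 CPM of Xist. The male-predominant Cyp4a12a was higher in TKO-tagged replicate 1 too, at 263 CPM against 108 CPM in replicate 2. Cyp2c38 and Cyp2c39 ran the other way, at 1.13 and 62.4 CPM and at 1.05 and 73.5 CPM in TKO-tagged replicates 1 and 2. Some P450 genes were abundant in organoids too. Cyp51, which demethylates lanosterol, stood at 213 and 172 CPM in the TKO-tagged libraries, 231 and 236 CPM in the Sox9-derived libraries and 464 and 349 CPM in the Ck19-derived libraries. Cyp2j6 stood at 54.7 and 88.0 CPM, 151 and 129 CPM, and 87.3 and 79.7 CPM in the same order. No explanation of these values was tested.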
